A study of Homo sapiens with 12 samples.

Results

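The comparison described here sets cells that had adapted to a TEAD inhibitor, and were treated with GNE-7883, against the untreated line they came from. Its members are the libraries titled as resistant cells with GNE-7883 (replicates 1 to 3) and as sensitive cells with DMSO (replicates 1 to 3), which are 6 of the 12 libraries of the series. The sensitive cells were NCI-H226, an established human line that the cell type label calls mesothelioma and the tissue label lung epithelium, and which is NF2-null per the growth protocol. The resistant cells were NCI-H226_CL3, derived from it by growth in a TEAD small-molecule inhibitor raised from 0.25 to 3 µM, so both groups share the loss of NF2. The other 2 groups, sensitive cells with GNE-7883 and resistant cells with DMSO (3 libraries each), are used only to place the values. With only 1 resistant line, what sets the lines apart cannot be told from what sets these particular cultures apart. The sources used here do not give the dose or length of the last incubation.

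The Hippo pathway is a kinase cascade (STK3 and STK4, then LATS1 and LATS2) that keeps the coactivators YAP1 and WWTR1 (TAZ) out of the nucleus. NF2 encodes merlin, an upstream activator of that cascade, and its loss is frequent in mesothelioma. In the nucleus YAP1 and TAZ bind the TEAD factors TEAD1 to TEAD4 and switch on genes of growth, adhesion and matrix, among them CCN1, CCN2 and ANKRD1. GNE-7883 is a small molecule that inhibits TEAD. The RAS-MAPK cascade is a separate growth signal that ends in the ERK kinases, and its activity is commonly read from feedback genes such as the DUSP phosphatases and the SPRY proteins.

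Some of the YAP/TEAD targets and of the interferon-stimulated genes carry short motifs near their start sites. The windows below all come from genes with a match, and are shown because these genes end up in different places in the adapted cells. Each is the 250 bases before the RefSeq start site on GRCh38.p14, 5′ to 3′ on the gene's strand. CCN2, ANKRD1 and NUAK2 are YAP/TEAD targets, of which CCN2 and NUAK2 were within 1.5-fold of the parental level and ANKRD1 fell. Their windows lie at chr6:131951373-131951622, chr10:90921088-90921337 and chr1:205321746-205321995, all on the minus strand, and capitals mark the TEAD motif CATTCC on either strand.
CCN2: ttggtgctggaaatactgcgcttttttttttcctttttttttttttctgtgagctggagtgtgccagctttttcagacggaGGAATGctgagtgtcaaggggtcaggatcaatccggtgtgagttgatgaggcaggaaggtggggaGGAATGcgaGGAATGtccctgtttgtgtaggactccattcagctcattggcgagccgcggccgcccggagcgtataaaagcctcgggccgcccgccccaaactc
ANKRD1: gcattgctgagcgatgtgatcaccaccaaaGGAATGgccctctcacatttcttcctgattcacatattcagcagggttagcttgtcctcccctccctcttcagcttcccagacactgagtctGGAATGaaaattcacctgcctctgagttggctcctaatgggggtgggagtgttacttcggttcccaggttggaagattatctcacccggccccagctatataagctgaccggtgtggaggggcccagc
NUAK2: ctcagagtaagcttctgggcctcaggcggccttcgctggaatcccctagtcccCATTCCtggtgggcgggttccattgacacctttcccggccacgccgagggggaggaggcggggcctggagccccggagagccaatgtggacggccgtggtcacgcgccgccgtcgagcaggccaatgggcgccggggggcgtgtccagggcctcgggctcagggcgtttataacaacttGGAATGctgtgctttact

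RSAD2 and IFIT1 are interferon-stimulated genes that stood above the parental level in the adapted cells. Their windows lie at chr2:6877527-6877776 and chr10:89392373-89392622, both on the plus strand, and capitals mark the interferon-response motif, GAAA followed by any 2 bases and GAAA again, on either strand.
RSAD2: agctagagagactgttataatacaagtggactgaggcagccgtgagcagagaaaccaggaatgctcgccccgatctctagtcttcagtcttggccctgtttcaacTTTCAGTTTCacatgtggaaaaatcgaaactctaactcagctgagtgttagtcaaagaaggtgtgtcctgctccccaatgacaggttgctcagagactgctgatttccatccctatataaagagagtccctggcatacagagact
IFIT1: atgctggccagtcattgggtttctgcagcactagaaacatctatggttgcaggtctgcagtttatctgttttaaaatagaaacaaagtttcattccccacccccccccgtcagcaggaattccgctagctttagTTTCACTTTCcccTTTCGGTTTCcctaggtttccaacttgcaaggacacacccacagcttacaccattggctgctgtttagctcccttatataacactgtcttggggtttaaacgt

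CATTCC occurred in 11.9% of 35116 such windows, or for 14.3% of the genes that have one, and in 8 of the 16 YAP/TEAD targets that had a window (AMOTL2, ANKRD1, AXL, CCN2, FOXF2, NUAK2, PTPN14 and TGFB2). The interferon-response motif occurred in 3.02% of the windows, or for 3.71% of the genes, and in 16 of the 23 interferon-stimulated genes that had one. Overlapping matches were counted, and a match describes letters only. Of the 8 targets with CATTCC, AMOTL2 and FOXF2 rose against the untreated parent, ANKRD1, AXL, PTPN14 and TGFB2 fell, and CCN2 and NUAK2 did not pass the test, so that genes with the motif stood in every class.

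Total counts of the 6 libraries ran from 35737227 to 46962645. Levels are given as CPM, read counts scaled to library size with TMM factors, and differences as log2 fold changes with standard errors from edgeR's quasi-likelihood test, with p-values adjusted over all 18035 genes tested. An adjusted p under 0.05 is a call, and only called genes are said to rise or fall. It is said to be within 1.5-fold of the parental level where the 95% interval of its fold change lies inside 1.5-fold in either direction, a separate question from the call. Sensitive DMSO replicate 2 stood apart: comparing its counts with those of replicates 1 and 3 gave a chi-square of 39.4 and 45.5 per degree of freedom, against 3.33 for replicates 1 and 3, and 3.51 to 11.3 in other groups. The mitochondrial share of counts was 0.556 ± 0.0568% in the untreated parent and 0.656 ± 0.0398% in the adapted cells (SD, n = 3). In bulk RNA, fewer cells of a kind and less RNA per cell cannot be told apart. NF2 was too low to test, with 5 counts over the 3 libraries of either group.

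Against the untreated parent, 4162 genes were higher in resistant cells with GNE-7883 (23.1% of those tested) and 4333 were lower (24%). Counts for the lists below are to be read beside these shares. Most differences were small: 779 genes were called and at least 2-fold higher (4.32%), 1133 were called and at least 2-fold lower (6.28%), and 8865 (49.2%) were within 1.5-fold of the parental level. Of the called genes, 3142 were also within 1.5-fold, and 3817 genes were neither called nor held within 1.5-fold, so that nothing is said of them. The median absolute log2 difference was 0.29, beside 0.39 for GNE-7883 against DMSO in the sensitive cells. Over 10859 well-expressed genes the root mean square log2 difference between group means was 0.568 for resistant GNE-7883 and sensitive DMSO, 0.612 for resistant DMSO and sensitive DMSO, 0.192 for the 2 resistant groups and 0.803 for the 2 groups with GNE-7883. These distances share libraries and are given as descriptions.

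**Figure D1:**
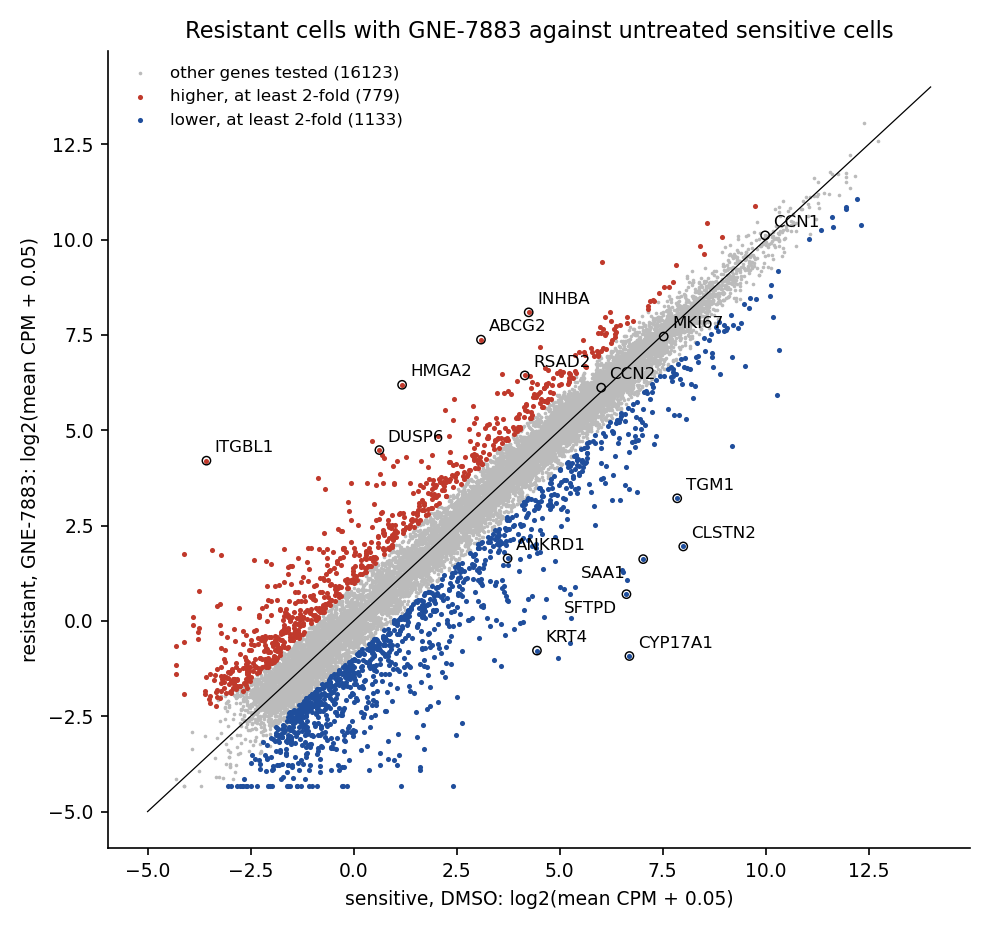
Mean level of each tested gene in sensitive DMSO cells (x) and resistant GNE-7883 cells (y), both as log2(mean CPM + 0.05), with 779 genes called at least 2-fold higher in red and 1133 at least 2-fold lower in blue. CCN1, CCN2 and MKI67 lie near the diagonal, HMGA2, ABCG2, INHBA and DUSP6 far above it, and CYP17A1, SFTPD, SAA1 and CLSTN2 far below it.

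Where a programme is placed against the other groups, values come from 3 other comparisons. GNE-7883 against DMSO in sensitive cells (29.8% of genes higher and 28.4% lower) and resistant against sensitive cells in DMSO (24.2% higher and 24.4% lower) share the sensitive DMSO libraries with the comparison described. GNE-7883 against DMSO in resistant cells (5.25% higher and 3.97% lower) shares the resistant GNE-7883 libraries. Their values are therefore set side by side and not counted as separate evidence.

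**Figure D2:**
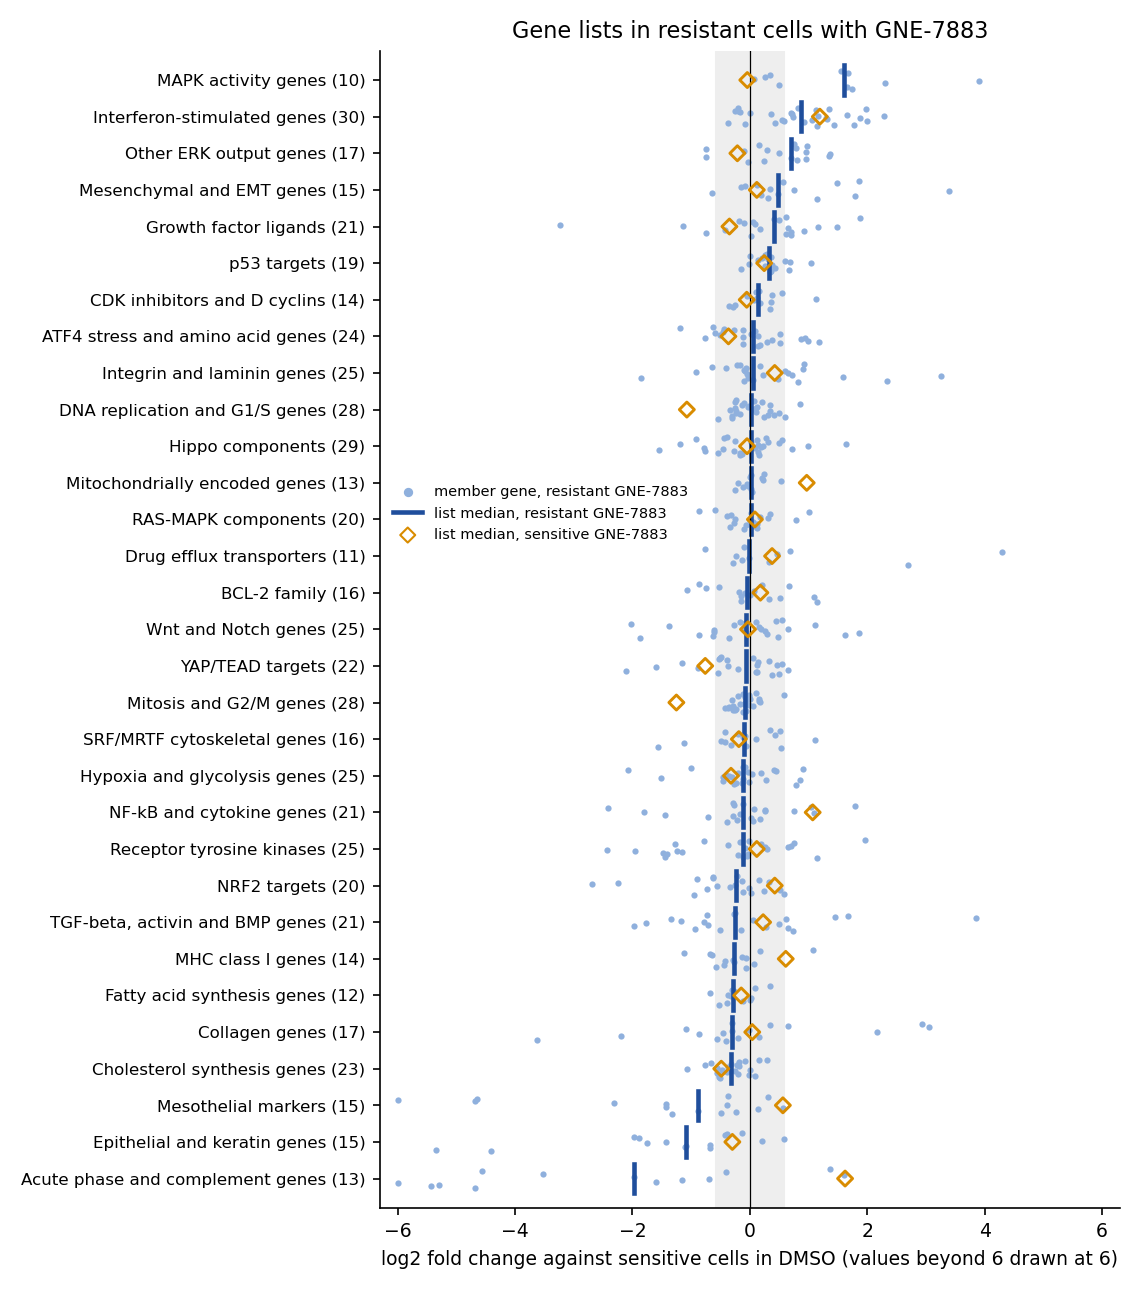
Log2 fold change of each member gene in resistant GNE-7883 against sensitive DMSO cells (blue points), the list median (blue bar) and the list median for sensitive GNE-7883 against sensitive DMSO (open diamond), with the number of genes tested in parentheses and the 1.5-fold range in grey. The replication, mitosis and mitochondrially encoded lists have blue bars near 0 and diamonds far from it, whereas the MAPK activity list has its bar at 1.61 and its diamond near 0.

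The YAP/TEAD targets, the genes closest to the drug's target, had split into genes above, near and below the parental level. Of 22 tested, 8 rose, 11 fell and 9 were within 1.5-fold of the parent, beside 23.1%, 24% and 49.2% of all genes. The last share includes low genes with wide intervals. With a filter of 5 CPM, 8 of 21 targets and 7886 of 11414 genes were within 1.5-fold. The median log2 difference was -0.07, with members on both sides of 0, and the median absolute log2 difference was 0.47, beside 0.29 over all genes. In sensitive cells with GNE-7883, 2 of these genes rose and 17 fell, with a median of -0.76. The count of those that rose went from 8 to 5 without resistant GNE-7883 replicate 1 and to 5 without replicate 2.

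CCN2, a secreted matricellular protein and a standard YAP readout (ENSG00000118523, chromosome 6, 131948176 to 131951373), had 64.1, 65.3 and 63.5 CPM in the untreated parent and 67.5, 69.8 and 70.6 CPM in the adapted cells. The groups did not overlap, but the difference of 0.11 ± 0.053 on the log2 scale did not pass the test (adjusted p = 0.104) and lay within 1.5-fold. The call was made only when sensitive DMSO replicate 2 was left out (adjusted p = 0.0479), and the 1.5-fold limit held in all 13 alternatives. The mean was 8.49 CPM in sensitive cells with GNE-7883 and 102 CPM in resistant cells with DMSO. In the resistant line CCN2 therefore still differed between DMSO and GNE-7883 (log2 difference -0.56), but from a level above the parent's.

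CCN1, the related CYR61 protein (ENSG00000142871, chromosome 1, 85580761 to 85583962), had 984, 1049 and 1007 CPM in the parent and 1113, 1088 and 1112 CPM in the adapted cells. The rise was 0.12 ± 0.045 (adjusted p = 0.0322), within 1.5-fold, and it was called in 5 of 13 alternatives. The receptor tyrosine kinase AXL, another target, fell by 0.20 and stayed within 1.5-fold of the parent, after standing at 593 CPM there and 518 CPM in the adapted cells. It was 298 CPM in sensitive cells with GNE-7883. NUAK2, a stress kinase, and FJX1, a secreted Four-jointed relative, were also within 1.5-fold and not called (0.05 and 0.13). NT5E, the ectonucleotidase CD73, and MYOF, a membrane repair protein, rose by 0.15 and 0.38, both within 1.5-fold.

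Other targets stayed low. ANKRD1, a cardiac ankyrin repeat protein (ENSG00000148677, chromosome 10, 90912096 to 90921276), had 13.9, 13.7 and 12.3 CPM in the parent and 2.84, 3.41 and 2.95 CPM in the adapted cells, with no overlap. Its log2 difference was -2.12 ± 0.11 (adjusted p = 1.75e-10), next to 2.19 CPM in sensitive cells with GNE-7883 and 5.09 CPM in resistant cells with DMSO. IGFBP3, an insulin-like growth factor binding protein, fell from 1101 ± 8.18 to 365 ± 3 CPM (SD, n = 3), a log2 difference of -1.59 ± 0.05. CCDC80, a matrix protein, fell by 1.16, F3, which encodes tissue factor, by 0.88, and LATS2, the Hippo kinase that is itself a target, by 0.54. In resistant cells with DMSO these 5 genes were already lower than in the parent by 0.26 (F3) to 1.38 (ANKRD1). Above the parent stood ASAP1, a GTPase-activating protein (0.65), GADD45A, a stress-response protein (0.54), and AMOTL2, an angiomotin-like protein that binds YAP (0.49).

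**Figure D3:**
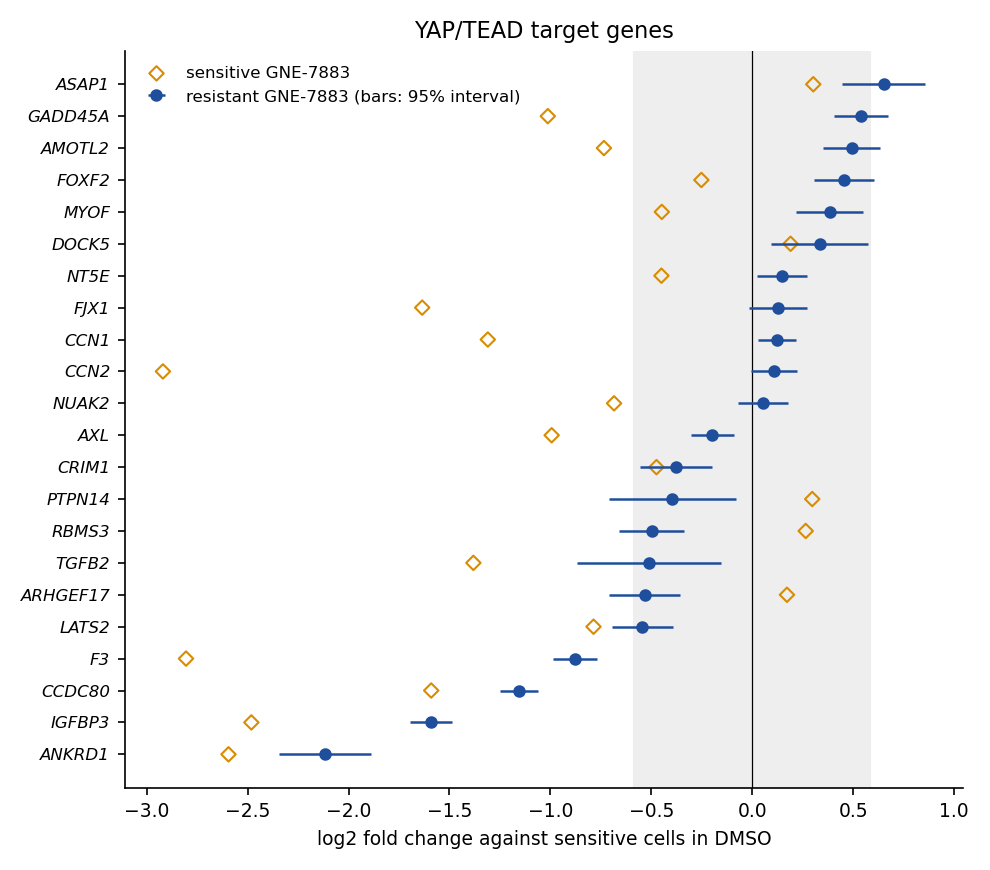
Log2 fold changes of 22 YAP/TEAD target genes against sensitive DMSO cells, for resistant GNE-7883 cells (filled circles, bars are 95% intervals) and sensitive GNE-7883 cells (open diamonds), with the 1.5-fold range in grey. CCN1, CCN2, NUAK2 and FJX1 lie near 0 in the adapted cells, and ANKRD1, IGFBP3, CCDC80 and F3 remain to the left of the grey range.

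The Hippo components themselves had 8 genes higher and 8 lower of 29 tested, and 15 within 1.5-fold. These counts lay near the shares over all genes, which were 23.1% higher, 24% lower and 49.2% within 1.5-fold. The coactivator YAP1 rose by 0.32 within 1.5-fold (205 to 255 CPM), and WWTR1 stood at 48.9 and 49.6 CPM. Among the DNA-binding partners TEAD2 rose by 0.55 and TEAD4 fell by 0.92 (88.5 to 46.7 CPM). TEAD1 and TEAD3 were not called (-0.25 and 0.13), although each was called without sensitive DMSO replicate 2 (TEAD1 then at -0.46, adjusted p = 2.36e-07, and TEAD3 at an adjusted p of 0.0399). The angiomotin family moved apart, with AMOTL1 higher by 1.64 and AMOT lower by 1.19. Of the scaffolds that activate LATS, WWC1 fell by 0.76 and WWC2 by 1.54, whereas FRMD6 rose by 0.72.

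Most proliferation genes were within 1.5-fold of the parental level in the adapted cells. All 28 replication and G1/S genes and all 28 mitosis and G2/M genes were lower in sensitive cells with GNE-7883 (medians -1.07 and -1.25). In the adapted cells 24 and 27 of them were within 1.5-fold of the untreated parent, with medians of 0.02 and -0.09. Of the replication genes 8 rose and 8 fell, and of the mitosis genes 1 rose and 10 fell, in every case by less than 2-fold. Over all genes 23.1% rose and 24% fell, and with a filter of 5 CPM 7886 of 11414 were within 1.5-fold. In resistant cells with DMSO 12 replication genes were higher than the parent and 5 lower. Of the mitosis genes 8 were higher there and 3 lower. From DMSO to GNE-7883 within the resistant line, 2 replication genes and 7 mitosis genes fell, and none rose. The median of the mitosis list against the parental mean was -0.11, -0.05 and -0.10 in the 3 adapted libraries, and -1.24, -1.23 and -1.25 in sensitive cells with GNE-7883.

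MKI67, the antigen Ki-67, had 191, 136 and 225 CPM in the parent and 188, 173 and 166 CPM in the adapted cells, groups that overlap (log2 difference -0.07 ± 0.15, adjusted p = 0.755). The kinase CDK1 (156 and 144 CPM), the spindle factor TPX2 (329 and 327 CPM) and thymidylate synthase TYMS (124 and 122 CPM) were likewise within 1.5-fold and not called. Cyclin B1 (CCNB1) fell by 0.28, PLK1 by 0.38 and AURKA by 0.36, all inside the 1.5-fold range. For 5 genes the 95% interval crossed or lay beyond the 1.5-fold limit. Cyclin E2 (CCNE2) rose by 0.86 and had its whole interval beyond it. The helicase subunits MCM5 (up 0.60) and MCM2 (down 0.54), the cytokinesis protein ANLN (up 0.58) and the replication factor CDC45 (up 0.49) had intervals that crossed it.

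Among the regulators of G1, cyclin D1 (CCND1) had 381, 336 and 402 CPM in the parent and 401, 388 and 388 CPM in the adapted cells, overlapping groups with a log2 difference of 0.07. MYC, at 205 and 192 CPM, was within 1.5-fold as well. CDKN2B, an inhibitor of CDK4 and CDK6, was 41.7 CPM in the parent, 126 CPM in sensitive cells with GNE-7883 and 35.1 CPM in the adapted cells (log2 difference -0.25, within 1.5-fold). Cyclin D2 (CCND2) rose by 1.12, from 65.9 to 143 CPM, and the kinase CDK6 by 0.38.

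The 13 mitochondrially encoded genes also lay mostly near the parental level. All 13 were higher in sensitive cells with GNE-7883 (median 0.97), and 12 were within 1.5-fold of the parent in the adapted cells (median 0.02), where 4 rose and 1 fell. The exception was MT-CO1, a cytochrome oxidase subunit, which rose by 0.53 (1273 ± 123 to 1834 ± 137 CPM, SD, n = 3). The mitochondrial share of counts is a sign of RNA quality as well, and its part in other results was not tested.

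**Figure D4:**
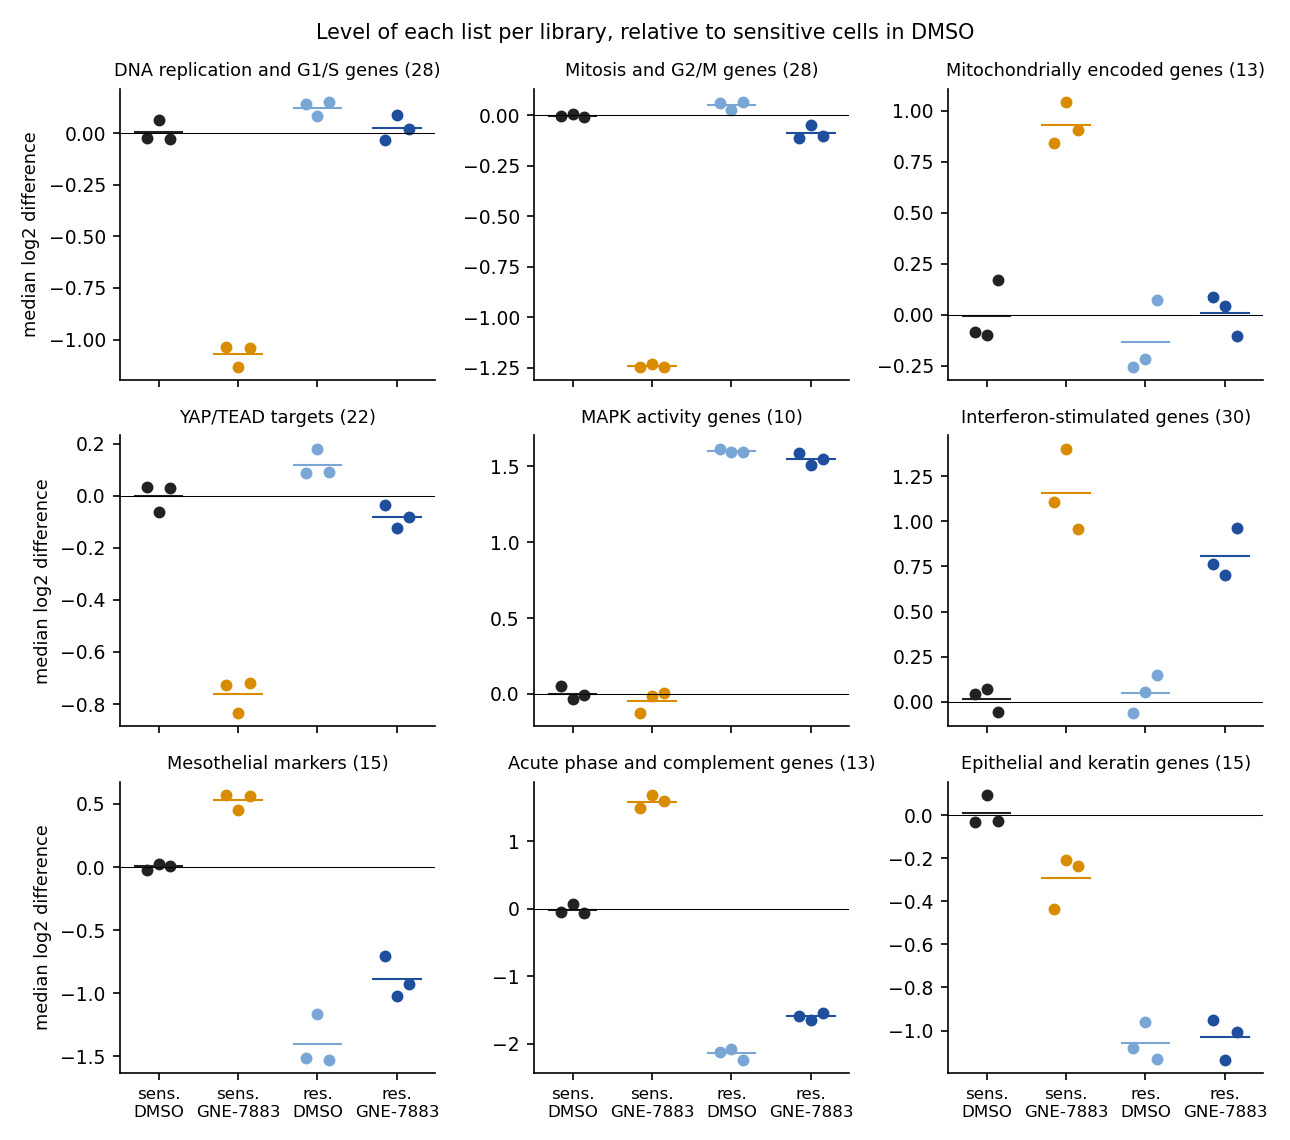
Median log2 difference of each list from its mean in sensitive DMSO cells, 1 point per library, with lines at the mean of 3 libraries and the number of genes in parentheses. The replication, mitosis and mitochondrially encoded lists in resistant GNE-7883 cells lie near 0, the MAPK activity and interferon lists lie above it, and the mesothelial, acute phase and epithelial lists lie below it.

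MAPK output had the highest median of the 35 lists. Of 10 genes used as a readout of MAPK activity, 9 rose and none fell, 6 of them at least 2-fold, with a median log2 difference of 1.61, beside -0.01 over all genes tested. In sensitive cells with GNE-7883, 3 of the 10 rose and 3 fell (median -0.04). DUSP6, the phosphatase that acts on ERK (ENSG00000139318, chromosome 12, 89347232 to 89353271), had 1.52, 1.43 and 1.53 CPM in the parent and 22.5, 21.6 and 22.7 CPM in the adapted cells. The groups lay far apart, at a log2 difference of 3.90 ± 0.10 (adjusted p = 8.45e-14).

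DUSP4, a nuclear phosphatase of the same family, rose from 13.4 to 65.8 CPM (2.30 ± 0.066). The ETS factor ETV5 had 33.7, 31.1 and 31.8 CPM in the parent and 93.8, 96.6 and 93.6 CPM in the adapted cells (1.55 ± 0.056, adjusted p = 3.65e-12). Its relative ETV4 rose by 1.67, the feedback inhibitor SPRY2 by 1.66, and PHLDA1, a pleckstrin-homology protein, by 1.74. SPRY4 differed from these: it was 21.2 CPM in the parent, 54.6 CPM in sensitive cells with GNE-7883 and 29.8 CPM in the adapted cells (up 0.49). EPHA4 (0.35) and EPHA2 (0.25), 2 ephrin receptors, rose within 1.5-fold.

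In resistant cells with DMSO the same genes stood at a like height, for example 18.2 CPM for DUSP6, 62 CPM for DUSP4 and 107 CPM for ETV5. The list median per library was 1.59 to 1.62 there and 1.51 to 1.59 in resistant cells with GNE-7883.

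**Figure D5:**
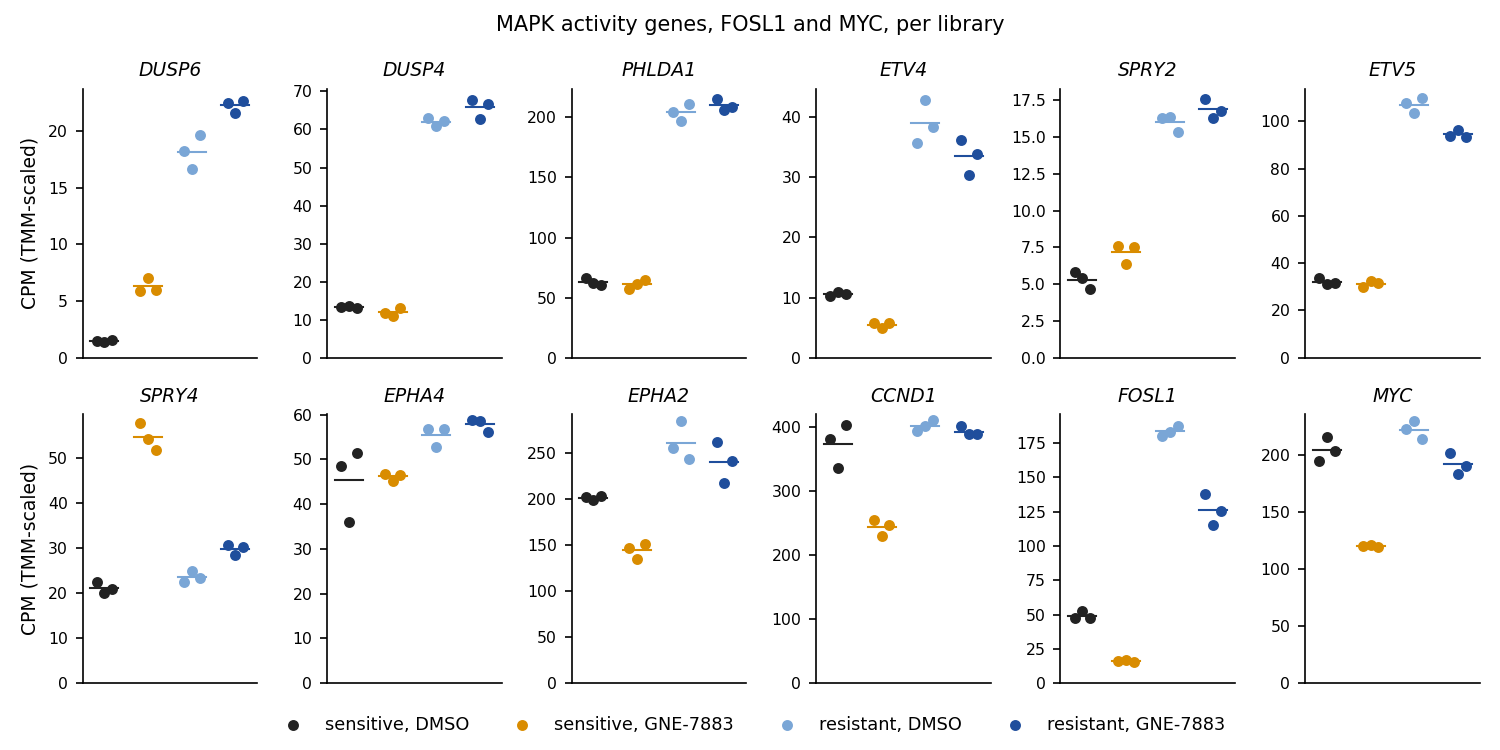
CPM of the 10 MAPK activity genes, FOSL1 and MYC in each of the 12 libraries, with lines at group means. DUSP6, DUSP4, PHLDA1, ETV4, SPRY2, ETV5 and FOSL1 are higher in all resistant GNE-7883 libraries than in any sensitive DMSO library, and CCND1 overlaps between the 2 groups.

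Of 17 further ERK output genes 13 rose and 2 fell, with a median of 0.71. With GNE-7883 in sensitive cells, 4 of the 17 rose and 9 fell (median -0.21). From DMSO to GNE-7883 within the resistant line, 1 rose and 6 fell (median -0.12). FOSL1, the AP-1 subunit FRA1 (ENSG00000175592, chromosome 11, 65892049 to 65900573), had 47.7, 52.7 and 47.2 CPM in the parent and 138, 116 and 125 CPM in the adapted cells (1.36 ± 0.07, adjusted p = 2.22e-10). It was 16.1 CPM in sensitive cells with GNE-7883 and 183 CPM in resistant cells with DMSO. The ETS factor ELK3 rose by 1.35, the cytokine LIF by 0.98 and the feedback inhibitor SPRED2 by 0.96. HBEGF, an EGF-family ligand, fell by 0.75 and SPRY1 by 0.75. DUSP5 (14.4 and 14 CPM) was within 1.5-fold and not called.

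Most RAS-MAPK components were within 1.5-fold of the parental level. Of 20 tested 16 were within 1.5-fold of the parent, 4 rose and 7 fell, beside 49.2%, 23.1% and 24% of all genes. With a filter of 5 CPM, 7886 of 11414 genes were within 1.5-fold. RASA1, a RAS inhibitor, rose from 61 to 123 CPM (1.01 ± 0.073). NRAS, BRAF, MAP2K1 and NF1 were all within 1.5-fold and not called. KSR1, a scaffold of the cascade, fell by 0.87.

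Receptors that read growth factors at the cell surface fell more often than they rose. Of 25 receptor tyrosine kinases tested 6 rose and 11 fell, 2 and 8 of them at least 2-fold. The share that rose was near that of all genes (23.1%), and the share that fell was above that of all genes (24%). EGFR, the epidermal growth factor receptor (ENSG00000146648, chromosome 7, 55019021 to 55211628), had 536, 347 and 577 CPM in the parent and 1102, 1063 and 1050 CPM in the adapted cells. The groups did not overlap and the rise was 1.14 ± 0.13 (adjusted p = 3.47e-06), the lowest value being that of sensitive DMSO replicate 2. IGF1R, the insulin-like growth factor 1 receptor (ENSG00000140443, chromosome 15, 98648539 to 98964530), had 501, 394 and 539 CPM in the parent and 90.3, 87.6 and 88.9 CPM in the adapted cells, a fall of 2.43 ± 0.098.

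PDGFRB fell by 1.95, FGFR3 by 1.48, ERBB3 by 1.45 and FGFR2 by 1.41, while MET, FGFR1 and ERBB2 were within 1.5-fold and not called. In sensitive cells with GNE-7883, IGF1R was 593 CPM and FGFR3 26.5 CPM, beside 478 and 27.5 CPM in the parent. Of 21 growth factor ligands 8 rose and 4 fell. The lymphatic growth factor VEGFC rose by 1.88, FGF5 by 1.49, the ERBB ligands NRG1 by 0.91 and TGFA by 0.70, and FGF2 by 0.65. FGF18 had 101, 110 and 97.8 CPM in the parent and 10.3, 11.3 and 11.4 CPM in the adapted cells, a fall of 3.23 ± 0.075.

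Interferon-stimulated genes, which carry out antiviral defence, were above the parent. Of 30 tested 23 rose and 3 fell, 14 of them at least 2-fold higher and 6 within 1.5-fold, with a median of 0.87. In sensitive cells with GNE-7883 29 of the 30 rose (median 1.19). RSAD2, which encodes viperin (ENSG00000134321, chromosome 2, 6865806 to 6898239), had 18.1, 19.6 and 15.6 CPM in the parent and 82.9, 88.7 and 88.2 CPM in the adapted cells, well apart (2.28 ± 0.10, adjusted p = 3.21e-11). OAS2, an oligoadenylate synthetase, had 7.72, 6.78 and 6.76 CPM against 25.4, 24.3 and 28.6 CPM (1.88 ± 0.20). IFIT3 rose by 1.78, IFIT2 by 1.44, MX2 by 1.31 and IFIT1 by 1.14.

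This list differed from the MAPK activity genes in resistant cells with DMSO. There 8 of the 10 MAPK activity genes were higher than the parent, and 2 of them rose from DMSO to GNE-7883 within the resistant line. Of the 30 interferon-stimulated genes, resistant cells with DMSO had 9 higher than the parent and 8 lower. From DMSO to GNE-7883 within the resistant line 27 of the 30 rose (median 0.70). OAS2, for example, was 6.97 CPM in resistant cells with DMSO and 26.1 CPM with GNE-7883, beside 38.3 CPM in sensitive cells with GNE-7883. Among regulators of the list, IRF7 (10.5 and 9.10 CPM) was within 1.5-fold and not called, STAT2 fell by 0.18 within 1.5-fold, and IRF9, at 0.379 and 0.324 CPM, was not called.

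The MHC class I genes, often grouped with these, mostly fell or stayed near the parent. Of 14 genes 1 rose, 7 fell and 8 were within 1.5-fold, next to 11 that rose in sensitive cells with GNE-7883. HLA-E (322 and 337 CPM) was within 1.5-fold and not called, HLA-B fell by 0.58, and NLRC5, the class I transactivator, fell by 1.12. The peptidase ERAP2 rose by 1.08.

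Of 21 NF-kB and cytokine genes 19 had risen in sensitive cells with GNE-7883 (median 1.07). In the adapted cells 5 rose, 10 fell and 10 were within 1.5-fold, with a median of -0.12. TNFAIP3, an NF-kB inhibitor, was 38.5 CPM in the parent, 120 CPM in sensitive cells with GNE-7883 and 38.9 CPM in the adapted cells, and the manganese superoxide dismutase SOD2 was 1248, 6546 and 1034 CPM. IL6 went below the parent, from 20.8, 22.9 and 20.4 CPM to 4.24, 3.34 and 4.37 CPM (a fall of 2.42 ± 0.11), as did the adhesion molecule ICAM1 (down 1.44). IL1B rose by 1.79 and the chemokine CCL5 by 1.08.

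Acute phase and complement genes were far below the parent. Of 13 tested 11 fell, 9 of them at least 2-fold, and 2 rose, with a median of -1.97. All 13 had risen in sensitive cells with GNE-7883 (median 1.62). The serum amyloid gene SAA1 (ENSG00000173432, chromosome 11, 18266174 to 18269977) had 122, 158 and 111 CPM in the parent and 2.78, 2.83 and 3.47 CPM in the adapted cells, groups that do not come near each other (-5.44 ± 0.14, adjusted p = 4.29e-14). SAA2, its near-identical neighbour, was 93.4 and 2.37 CPM, and counts may be shared between the 2 genes. SAA4 had no counts in resistant cells with GNE-7883, and the median is the same with it set at 3 counts over the group.

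The iron-binding protein LCN2 fell by 4.56, the complement regulator CFI by 3.52, complement factor B (CFB) by 1.97 and the initiating protease C1R by 1.59. SERPINA1, a protease inhibitor, rose by 1.37. For SAA1 the means were 289 CPM in sensitive cells with GNE-7883 and 2.24 CPM in resistant cells with DMSO, the first above and the second below the untreated parent.

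Mesothelial markers, the genes of the lining cells that mesothelioma arises from, fell in most cases. Of 15 tested 11 fell, 7 of them at least 2-fold, and 3 rose, with a median of -0.89, and 11 had risen in sensitive cells with GNE-7883 (median 0.56). Calretinin (CALB2) had 1067, 1245 and 1063 CPM in the parent and 452, 435 and 456 CPM in the adapted cells, a fall of 1.33 ± 0.059. It was 1672 CPM in sensitive cells with GNE-7883. The surface protein LRRN4 fell by 1.43, UPK3B by 0.89 and the transcription factor WT1 by 0.49.

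MSLN, mesothelin, was within 1.5-fold and not called (173 and 147 CPM), and podoplanin (PDPN) rose by 0.14. Transglutaminase 1 (TGM1) had 228, 240 and 225 CPM in the parent and 9.65, 8.55 and 9.50 CPM in the adapted cells, a fall of 4.64 ± 0.087. It stood at 63.1 CPM in sensitive cells with GNE-7883. MUC16, the CA-125 mucin, went from 3.00 ± 2.28 to 0.0209 ± 0.0362 CPM (SD, n = 3), with only 3 counts in the adapted cells.

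Epithelial and keratin genes showed the same direction. Of 15 tested 12 fell, 8 of them at least 2-fold, and 2 rose, with a median of -1.08. The simple-epithelium keratins KRT18 and KRT8 fell by 1.08 and 1.10, and the tight junction protein OCLN by 1.89. E-cadherin (CDH1), low in the parent at 3.56 CPM, was 0.162 CPM in the adapted cells. KRT4 had 21.5, 22.4 and 21.5 CPM against 0.501, 0.579 and 0.519 CPM, a fall of 5.35 ± 0.11. KRT5, a keratin also used as a mesothelial marker, rose by 0.56.

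Of 15 mesenchymal and EMT genes 10 rose and 2 fell, with a median of 0.48. The transcription factor SNAI2 (ENSG00000019549) had 5.42, 5.78 and 4.79 CPM in the parent and 58.3, 55.5 and 55 CPM in the adapted cells (3.40 ± 0.11, adjusted p = 6.56e-13). Vimentin (VIM) rose by 1.15, the collagen-crosslinking oxidase LOX by 1.85 and fibronectin (FN1) by 1.79. ZEB1 was within 1.5-fold and not called, N-cadherin (CDH2) rose by 0.30, and SNAI1 fell by 0.65. The values of SNAI2, LOX and VIM in resistant cells with DMSO were 66.5, 1449 and 2064 CPM, close to the 56.3, 1372 and 1875 CPM with GNE-7883.

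Matrix genes were called in both directions, beside 23.1% higher and 24% lower of all genes. Of 17 collagens 4 rose and 10 fell: the transmembrane collagens COL13A1 and COL17A1 rose by 3.05 and 2.93, whereas the fibrillar COL3A1 fell by 3.63 and COL6A1 by 0.88. Of 25 integrin and laminin genes 11 rose and 4 fell. The collagen-binding integrins ITGA11 and ITGA2 rose by 3.25 and 2.34, and ITGB4, the hemidesmosome subunit, fell by 0.92 (2146 to 1137 CPM). Of 16 cytoskeletal genes controlled by SRF and MRTF 5 rose and 7 fell, with vinculin (VCL) up by 1.11 and transgelin (TAGLN) down by 1.56.

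Of 21 TGF-beta, activin and BMP genes 7 rose and 11 fell. The activin A subunit INHBA (ENSG00000122641, chromosome 7, 41667168 to 41705834) had 18.5, 17.6 and 20.8 CPM in the parent and 267, 276 and 275 CPM in the adapted cells, 2 ranges far apart (3.85 ± 0.064, adjusted p = 4.94e-16). INHBB, the other activin subunit, rose by 1.46 and their antagonist follistatin (FST) by 1.68. On the BMP side the ligand BMP4 fell by 1.34, its targets ID1 and ID3 by 1.77 and 1.17, and the feedback inhibitor SMAD6 by 1.97.

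Among the 15 genes that rose most (at least 5 CPM in either group), several were close to silent in the parent. ITGBL1, an integrin beta-like secreted protein (ENSG00000198542, chromosome 13, 101452593 to 101720856), had 4 counts over the 3 parental libraries (0.0341 CPM) and 19, 17.1 and 18.9 CPM in the adapted cells. HMGA2, a chromatin protein of embryonic tissues (ENSG00000149948, chromosome 12, 65824131 to 65966295), had 2.44, 2.33 and 1.86 CPM in the parent and 73.3, 73.5 and 72.3 CPM in the adapted cells (5.04 ± 0.087, adjusted p = 8.14e-16). ABCG2, the efflux pump BCRP (ENSG00000118777, chromosome 4, 88090264 to 88231322), had 9.60, 7.64 and 8.16 CPM against 156, 173 and 169 CPM (4.29 ± 0.097, adjusted p = 1.38e-14).

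RGS4, a regulator of G-protein signalling, rose from 65 ± 3.91 to 684 ± 6.89 CPM (SD, n = 3) and was 12.6 CPM in sensitive cells with GNE-7883. DUSP6, INHBA and SNAI2 also belong to these 15 and are given above. The remaining genes rose by 3.33 to 4.76. They are CROT, a peroxisomal carnitine acyltransferase, CNTN5, a contactin, SLC8A1, a sodium-calcium exchanger, IVL, the cornified envelope protein involucrin, CD74, the MHC class II invariant chain, VEPH1, TMEM108 and COL4A6. In resistant cells with DMSO their means ran from 7.27 CPM (CD74) to 41.5 CPM (COL4A6), so all were above the parent there too. Of 11 drug efflux transporters 4 rose and 3 fell, beside 23.1% and 24% of all genes, with a list median of -0.009. ABCB1, the pump P-glycoprotein, rose by 2.70 from a very low level (0.0576 to 0.385 CPM).

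The 15 genes that fell most by the same rule all stood below 4 CPM in every adapted library. CYP17A1, a steroid hydroxylase (ENSG00000148795, chromosome 10, 102830531 to 102837533), had 101, 107 and 102 CPM in the parent and 0.522, 0.394 and 0.519 CPM in the adapted cells (-7.75 ± 0.10, adjusted p = 4.56e-17). It was 639 CPM in sensitive cells with GNE-7883. Surfactant protein D (SFTPD), a secreted lectin, had 87.4, 109 and 98.7 CPM against 1.38, 2.04 and 1.31 CPM, and 763 CPM in sensitive cells with GNE-7883.

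CLSTN2, a calsyntenin, had 285, 178 and 303 CPM against 3.80, 3.89 and 3.77 CPM (-6.06 ± 0.18). CYTL1, a small cytokine-like protein, had 4.96, 5.85 and 4.95 CPM in the parent and no counts in the 3 adapted libraries, which makes it at least 224-fold lower against a floor of 3 counts over the group. The remaining genes of this rule (REC114, ERVFRD-1, PTPRQ, CYP26A1, UNC13D, KRT4, SAA1, SAA2, TMEM255A, ISM2 and EMILIN2) fell by 4.91 to 6.1. All of them were below 3 CPM in resistant cells with DMSO as well.

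Medians of the metabolic lists were nearer to the parent than those of the acute phase, mesothelial and epithelial lists. Of 23 cholesterol synthesis genes 16 fell and 2 rose, beside 24% and 23.1% of all genes. The list had 14 genes within 1.5-fold and a median of -0.33. Its median absolute log2 difference was 0.33, beside 0.29 over all genes. With a filter of 5 CPM, 7886 of 11414 genes were within 1.5-fold. The synthase HMGCS1 fell by 0.51 (320 to 225 CPM), and the isomerase EBP fell by 0.77 (90.0 to 52.7 CPM). In sensitive cells with GNE-7883, 15 of them fell (median -0.49). Of 12 fatty acid synthesis genes 7 fell and 9 were within 1.5-fold, with FASN lower by 0.39, a call lost without resistant GNE-7883 replicate 2 (adjusted p = 0.072) and without replicate 3 (adjusted p = 0.0511). Of 25 hypoxia and glycolysis genes 15 were within 1.5-fold, 7 rose and 11 fell. The glucose transporter SLC2A1 rose by 0.78 and carbonic anhydrase CA9 fell by 2.08.

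Of 24 ATF4 stress and amino acid genes 8 rose, 8 fell and 11 were within 1.5-fold, beside 23.1%, 24% and 49.2% of all genes. The serine synthesis enzyme PSAT1 rose by 0.87 (47.7 to 87 CPM) after standing at 13.4 CPM in sensitive cells with GNE-7883, and the leucine transporter SLC7A5 was 552 CPM in the parent, 80.8 CPM in those cells and 367 CPM in the adapted cells (down 0.59). Of 20 NRF2 targets 3 rose and 9 fell, with the quinone reductase NQO1 lower by 0.96 and glutathione reductase GSR by 0.90. Of 25 Wnt and Notch genes 8 rose and 8 fell, beside 23.1% and 24% of all genes. The Wnt inhibitor DKK1 rose by 1.86 and the feedback gene AXIN2 fell by 1.87.

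The p53 targets were shifted by small amounts, and the BCL-2 family held called genes of both directions. Of 19 p53 targets 15 rose and none fell, but 15 of the 19 were within 1.5-fold (median 0.33), with CDKN1A, the inhibitor p21, up by 0.34 and the ligase MDM2 up by 0.35. The largest rise in the list was that of TP53INP1, an autophagy and stress protein (1.04). In the BCL-2 family 6 of 16 genes rose and 4 fell, and 8 were within 1.5-fold, beside 23.1%, 24% and 49.2% of all genes. BCL2L11, the pro-apoptotic protein BIM, was 10.3 ± 1.64 CPM in the parent, 44.5 ± 2.02 CPM in sensitive cells with GNE-7883 and 6.17 ± 0.978 CPM in the adapted cells (SD, n = 3; log2 difference -0.74 ± 0.12, adjusted p = 1.16e-04). BCL2 rose by 1.14 from 1.17 CPM, and MCL1 by 0.51.

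The labels were checked against markers of other cells. Of 12 lung epithelial markers 5 were high enough to test and 3 fell. NKX2-1, the defining factor, and SCGB3A2 had no counts in the 6 libraries, and the summed level of 180 to 192 CPM in the parent and 50.5 to 58.3 CPM in the adapted cells came mainly from SFTPD and ABCA3. Of 16 blood cell markers 5 were tested and 3 fell, with CD3E, MS4A1 and CD68 at 0 counts and sums of 8.92 to 9.75 and 4.53 to 5.06 CPM. Endothelial markers had 7 of 10 tested, 2 higher and 2 lower, with PECAM1 at 0.198 and 0.203 CPM and sums of 88.1 to 98 and 86.8 to 95.8 CPM. Squamous markers had 4 of 10 tested, 2 higher and 1 lower, with sums of 298 to 397 and 332 to 335 CPM and TP63 at 10 and 18 counts. Mesothelial markers summed to 3783 to 3996 CPM in the parent and 2477 to 2565 CPM in the adapted cells. In the adapted cells CALB2, WT1 and MSLN stood at 448, 125 and 147 CPM.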

How the data were processed

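RNA of 12 libraries was sequenced from total RNA with a TruSeq kit v2, which does not mark strand, in single-end runs of 50 bases (a mean of 56 M reads, per the labels). Per the submitters' processing notes GSNAP, GRCh38.p10 and limma were used, in roles not stated. The sources used here do not give the counting tool, annotation or strand setting, so overlapping and near-identical genes are uncertain. The authors deposited whole-number read counts for 58302 Ensembl genes, and RPKM values for the same libraries, used only to check that counts and RPKM hold the same data. Symbols came from a gene name table and coordinates from GENCODE 29 (GRCh38).

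Counts were fitted with edgeR 4.0.16 in R 4.3.3 (TMM, filterByExpr, quasi-likelihood, 1 mean per group over 12 libraries, 8 residual degrees of freedom, two-sided, Benjamini-Hochberg over 18035 genes), after the script was tested on simulated data. Standard errors are the log2 fold change over the square root of F. Alternatives used DESeq2 1.42.0, limma 3.58.1, another scaling and other filters, and left out in turn each of the 6 libraries compared. Depth limits precision: 3 counts, the limit a count of 0 allows, equal 0.0246 CPM over the 3 sensitive DMSO libraries and 0.0235 CPM over the resistant GNE-7883 libraries, for counting error only. Named genes are the 15 called genes with the largest change in each direction (a symbol, at least 5 CPM in either group, no overlap), those with the largest changes within each of 35 lists, and a set of pathway genes always named; other list members were chosen after their values were seen. Members and lists were chosen with earlier results of these data known. No label says that the libraries of a group were separate cultures, and p-values then reflect only how far these samples spread, possibly for technical reasons. In the comparison described, same-numbered libraries did not deviate together, so no pairing was used. Values of some single genes are not reported here.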

Additional observations from a re-analysis of the deposited data

How the results depend on the processing

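The comparison was recomputed under 13 alternatives, 6 of which left out 1 library. No named gene that was called changed direction, and 347 of 351 counts stayed within 1.5 times their value. Some genes that were not called changed sign, such as MKI67, whose log2 difference ran from -0.24 to 0.11. Of the list medians 56 moved by more than the spread between libraries and 399 did not. Medians near 0 changed sign in some of them, such as that of the YAP/TEAD targets, which was 0.06 with a filter of 5 CPM, and medians of marker lists with few tested genes moved most. With a filter of 5 CPM (11414 genes tested) 349 genes were at least 2-fold higher and 464 at least 2-fold lower, since low genes were not tested. YAP/TEAD targets that rose numbered 5 to 9 when 1 library was left out, with 5 without resistant GNE-7883 replicate 1 or replicate 2. Genes called higher numbered 3655 to 4518 and lower 3829 to 4381 when 1 library was left out. With a replicate block 4114 were higher and 4215 lower; same-numbered libraries correlated at -0.28, -0.34 and -0.07, so the numbers do not pair them. Of 157 named genes 134 kept their call in every alternative. The median over all genes stayed within 0.02 of 0 on the log2 scale under each scaling. The cause of the changed calls was not tested.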

Other observations

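Differences of the adapted cells from the parent were not spread evenly along the genome. In 221 bins of 10 Mb with at least 20 genes at 5 CPM or more (a layout chosen with the data in view), the median log2 difference ran from -0.30 to 0.54, with 16 bins beyond 0.3. Both bins of chromosome 10 between 10 and 30 Mb were high, at 0.45 (37 genes, 28 called higher and 4 lower) and 0.54 (25 genes, 20 higher and 3 lower). All bins of chromosome 22 with enough genes were high, at 0.36 to 0.49, with 165 of 233 genes called higher and 13 lower, beside 28.5% called higher over all genes in bins. On chromosome 7 251 of 471 genes were higher and 53 lower, and 4 of its bins (from 60, 90, 100 and 130 Mb) had medians of 0.31 to 0.39. The remaining bins beyond 0.3 were on chromosomes 9, 12 and 13, at 0.30 to 0.37. Other chromosomes had more genes lower than higher. On chromosome 3, 262 of 564 genes were lower and 103 higher, and on chromosome 17, 252 of 671 were lower and 120 higher. On chromosome 6, 203 of 507 were lower and 107 higher, beside 28.25% called lower over all genes in bins. Medians in resistant cells with DMSO against the same parental libraries were 0.53 and 0.53 on chromosome 10 and 0.26 to 0.42 on chromosome 22. In sensitive cells with GNE-7883 they were -0.15 and 0.03, and -0.15 to 0.02. DNA copy number was not measured in these libraries.

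CROT and ABCB1, among the genes raised from a very low level, lie close together on chromosome 7 (87345681 to 87399795 and 87503633 to 87713323), most of whose called genes were higher. ABCB4, which the GENCODE annotation places between them, was too low to test, with 1 count in the parent and 6 in the adapted cells. TP53TG1, next to CROT (87325225 to 87345515), rose by 3.14 as well, from 0.553 to 4.93 CPM. TMEM243 on one side (-0.08) was not called, SLC25A40 on the other side rose by 0.40, and ADAM22 farther on fell by 1.03. Counts without strand cannot part transcripts that overlap here.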
